A study of Mus musculus with 5 samples.

Results

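Loci of 6 genes of the bone marrow niche and of cytokine signalling were examined for binding of p300 and c-Jun in MS5, a stromal cell line established from mouse bone marrow. The members are Cxcl12, Kitl, Vcam1, Csf1, Il6 and Lif, and each was represented by a fixed window of the mouse build mm9. A peak belonged to a member when its centre lay in that window. The windows lay at chr6:117060000-117190000 (Cxcl12), chr10:99400000-99620000 (Kitl), chr3:115750000-115890000 (Vcam1), chr3:107490000-107620000 (Csf1), chr5:30280000-30400000 (Il6) and chr11:4110000-4220000 (Lif). They were between 110 and 220 kb long and covered 850 kb in all. Of the 83829 peaks in 4 deposited peak lists, 92 fell in these windows.

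The cells were at passage 11 and all of them received the cytokine TGF-β1 at 10 ng/mL for 5 h, so no library shows the cells without TGF-β1. One arm also received pioglitazone, an agonist of the nuclear receptor PPARγ, at 20 ng/mL. Chromatin immunoprecipitation with sequencing (ChIP-seq) targeted p300 or c-Jun, with 1 library for each antibody and treatment. Every difference between treatments is therefore a difference between 2 libraries, with no replicate check, and no p-value is given. Without pioglitazone the lists comprised 31466 p300 and 17044 c-Jun peaks, and with it 21994 and 13325. They hold positions only, so the depth of each library is unknown and expression of the genes, or of stromal markers, was not measured.

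Stromal cells support blood formation by secreted and surface factors. Cxcl12 is the chemokine that keeps haematopoietic stem cells in the marrow through its receptor Cxcr4, Kitl (stem cell factor) is the ligand of the receptor Kit, and Vcam1 is a surface adhesion molecule that anchors haematopoietic cells to stroma. Csf1 is the growth factor of monocytes, macrophages and osteoclasts, and Il6 and Lif are related cytokines that signal through a shared receptor subunit. p300 is a histone acetyltransferase recruited to active enhancers and promoters, and c-Jun is a subunit of AP-1, a factor known to act at cytokine genes and to bind the letters TGANTCA.

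In the RefSeq gene table (GRCm38.p6), which was used for gene order only, the protein-coding neighbours were Tmem72 and Zfp637 for Cxcl12 and Csl and Gm4301 for Kitl. They were Ahcyl1 and Eps8l3 for Csf1, Dnajb6 and Tyms for Il6, and Osm and Hormad2 for Lif. Osm encodes another cytokine of the Lif family. No mm9 annotation was used, so a peak in a window was not assigned to the named gene, to a neighbour, or to a promoter, exon or intron. Whether each window holds the gene it is named for was not checked either.

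The sequence before the start of the genes with most c-Jun peaks, Csf1 and Lif (8 over both lists each), is shown for its AP-1 letters, and Il6 was added after its match had been seen. RefSeq sequence was at hand for 5 of the 6 members, all but Vcam1. TGANTCA, searched on both strands, occurred in the 250 bases before the start in 2 of these 5, Il6 and Lif. The same 250 bases held it in 6.75% of the 32851 promoters in the table. The difference was not tested, and 5 promoters are too few to set against that share. A match describes the letters and does not show that c-Jun bound there. The stretches are from GRCm38.p6, at chr3:107760470-107760719 on the minus strand for Csf1, chr11:4257318-4257567 on the plus strand for Lif and chr5:30012864-30013113 on the plus strand for Il6, and these positions cannot be set against the mm9 peak positions. They run 5′ to 3′ up to the base before the start, with the matched letters in capitals.
Lif: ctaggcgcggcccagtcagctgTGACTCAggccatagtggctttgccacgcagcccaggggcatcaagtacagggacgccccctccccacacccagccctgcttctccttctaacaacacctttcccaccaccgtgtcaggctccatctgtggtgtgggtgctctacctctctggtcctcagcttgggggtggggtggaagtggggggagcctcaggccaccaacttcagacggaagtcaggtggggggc
Il6: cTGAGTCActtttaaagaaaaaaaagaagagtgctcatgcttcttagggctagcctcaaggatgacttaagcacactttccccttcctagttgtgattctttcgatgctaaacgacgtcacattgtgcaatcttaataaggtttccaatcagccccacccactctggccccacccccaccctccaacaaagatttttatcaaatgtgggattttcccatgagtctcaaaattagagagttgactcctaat
Csf1: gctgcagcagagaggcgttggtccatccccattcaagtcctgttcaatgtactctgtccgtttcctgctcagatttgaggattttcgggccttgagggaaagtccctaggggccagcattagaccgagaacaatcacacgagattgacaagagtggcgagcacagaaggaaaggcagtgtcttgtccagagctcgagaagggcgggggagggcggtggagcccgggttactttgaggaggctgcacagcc

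Without pioglitazone 35 p300 peaks and 20 c-Jun peaks were listed in the 6 windows, and with it 26 and 11. The numbers with pioglitazone were 74.3% of those without for p300 and 55.0% for c-Jun, against 69.9% and 78.2% for the whole lists. Neither difference from the whole lists was tested, and the c-Jun value rests on 20 and 11 peaks. In the Kitl, Csf1, Il6 and Lif windows the p300 list with pioglitazone held fewer peaks, with as many in the Cxcl12 window and 1 more in the Vcam1 window. c-Jun peaks were fewer in the same 4 windows and as many in the Cxcl12 and Vcam1 windows. With the longer list of each antibody shortened from its end to the length of the other, the numbers went from 30 to 26 for p300 and from 16 to 11 for c-Jun. With windows widened by 20 kb at each end they went from 45 to 33 and from 26 to 18. With windows narrowed by 20 kb at each end they went from 25 to 19 and from 13 to 8.

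**Figure D1:**
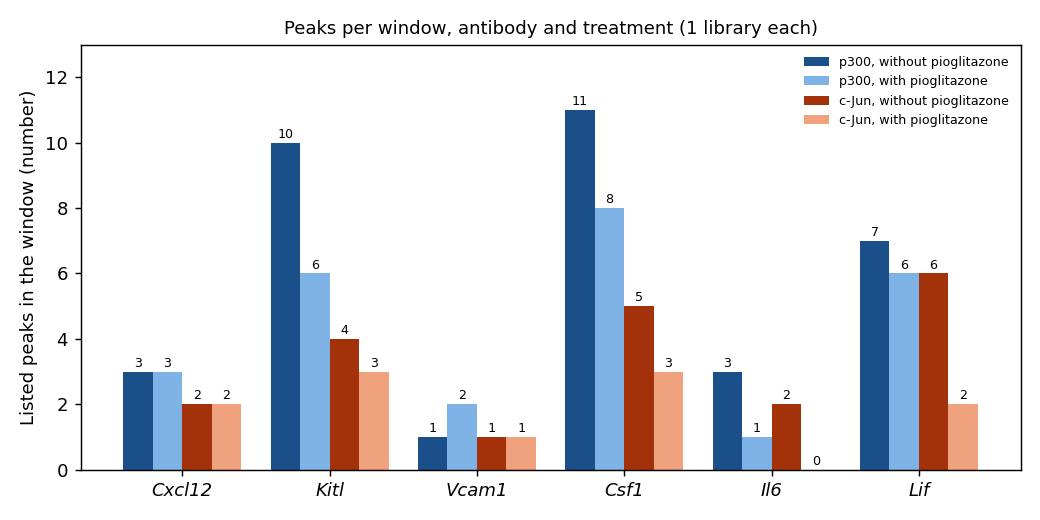
Number of listed peaks (vertical axis) in each of the 6 windows (horizontal axis), with 1 bar for each antibody and treatment and 1 library behind each bar. The Csf1 window held the most p300 peaks, 11 without and 8 with pioglitazone, and the Lif window the most c-Jun peaks without it, 6, against 2 with it.

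The windows were unequally filled. Over all 6, p300 peaks numbered 4.12 per 100 kb without pioglitazone, against 1.23 per 100 kb along the chromosomes, and c-Jun peaks 2.35 against 0.667. The Csf1 window held 8.46 p300 peaks per 100 kb and the Vcam1 window 0.714, while chromosome 3, on which both lie, held 1.16. Windows at other genes were not counted, so these densities say nothing particular to niche factors. The 92 peaks joined into 49 sites where peaks of any list overlapped by at least 1 bp, 14 in the Kitl window, 13 in the Csf1 window, 10 in the Lif window, 6 in the Cxcl12 window, 4 in the Il6 window and 2 in the Vcam1 window. Of these sites 23 were in 1 list, 14 in 2, 7 in 3 and 5 in all 4. Sites were not formed over the whole lists, so these numbers have no background and show nothing particular to the windows.

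**Figure D2:**
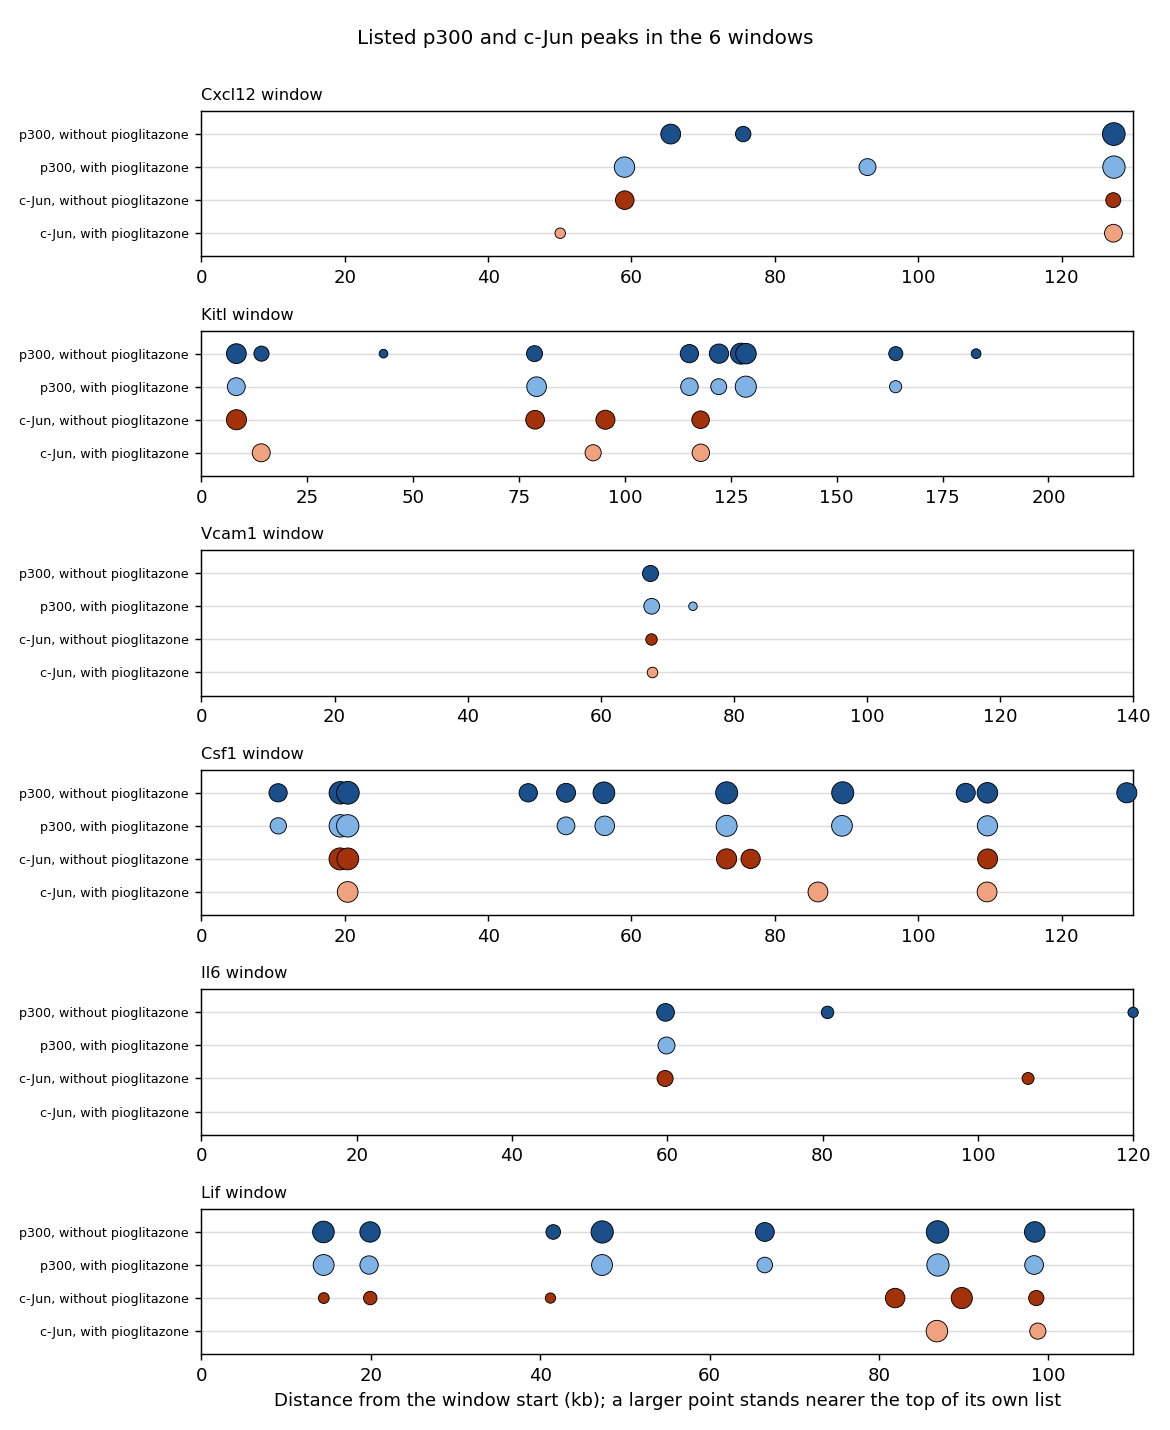
Listed peaks along each of the 6 windows, by distance from the window start in kb, with 1 lane for each antibody and treatment. A larger point stands nearer the top of its own list. Peaks of all 4 lanes were joined at 5 sites. At the one in the Lif window the p300 and c-Jun peaks with pioglitazone do not overlap each other. The c-Jun lane with pioglitazone is empty in the Il6 window.

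A p300 or c-Jun peak without pioglitazone is called retained below when a peak of the same antibody with pioglitazone overlapped it, and lost otherwise; a peak with pioglitazone that overlapped none is called gained. The terms refer to listing, not to a test of binding. Over the whole lists 51.1% of p300 peaks and 45.7% of c-Jun peaks were retained, 26.9% and 41.6% of those with pioglitazone were gained, and c-Jun overlapped p300 at 69.4% of its peaks without and 55.5% with pioglitazone. The counts by window below are read against these shares. A window held at most 11 peaks of a list. The exact 95% interval of each of the 34 window shares that could be formed included the share of the whole list. Where a share rested on 1 or 2 peaks, its interval would have included that share whatever the outcome. No window is thus shown to differ from the whole list or to match it. The deposited score is 1 for every peak, so the place of a peak in its list, given as a percentage of the rows from the top, is the only graded value. The sources used here do not state what the rows were sorted by, and places in lists of different lengths show no change.

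In the Cxcl12 window 1 site carried both factors in both treatments, and it lay near the window's end at chr6:117187093-117187426. Its p300 peak was row 385 of the list without pioglitazone (1.22%) and row 1044 of that with it (4.75%), the place nearest the top among all p300 peaks of the 6 windows without pioglitazone. Its c-Jun peak stood at 65.4% without and 44.9% with pioglitazone. Elsewhere in this window no peak of either antibody was shared by the treatments. At chr6:117118910-117119186 c-Jun was listed without pioglitazone only (38.7%) and p300 with pioglitazone only (23.2%). The other lost p300 peaks stood at 28.4% and 62.2%, the other gained p300 peak at 51.3% and the gained c-Jun peak at 90.3%. The Cxcl12 window had as many peaks in both treatments, 3 for p300 and 2 for c-Jun, with 1 of them shared for each antibody.

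The Vcam1 window held the fewest sites. Both factors were listed in both treatments at chr3:115817311-115817788, in the lower 50% of all 4 lists: 57.7% and 60.04% for p300 without and with pioglitazone, and 85.6% and 89.8% for c-Jun. The only other peak was a gained p300 peak at chr3:115823741-115823967, at 98.4% of its list.

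The Csf1 window held more p300 peaks than any of the other windows. Of its 11 p300 peaks without pioglitazone 8 were retained (72.7%), 3 were lost and none was gained. All 11 stood in the upper 50% of the list, and 4 in the upper 10%. At the same places in the list, taken in steps of 1%, 79.9% of all p300 peaks were retained, against 51.1% over the whole list, and 11.9% of those with pioglitazone were gained, against 26.9%. A pair of neighbouring sites led the window. At chr3:107510285-107510551 p300 stood at 1.54% without and 4.78% with pioglitazone, and c-Jun at 10.3% and 20.3%. About 1 kb away, at chr3:107509207-107509495, p300 was listed in both treatments (4.19% and 3.92%), while c-Jun was listed without pioglitazone only, at 8.71%. That is the c-Jun peak nearest the top of its list in any of the 6 windows, and its nearest c-Jun peak with pioglitazone was that of the neighbouring site, 1071 bp from centre to centre. A further site with both factors in both treatments was at chr3:107599494-107599813, where p300 stood at 22.2% and 24.8% and c-Jun at 27.4% and 28.3%. In all, 2 of 5 c-Jun peaks in the Csf1 window were retained and 1 of 3 with pioglitazone was gained, where the whole lists gave 65.6% and 28.1% at the same places. At chr3:107563145-107563401, where p300 was listed in both treatments, c-Jun was lost as well.

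In the Kitl window 5 of 10 p300 peaks and 1 of 4 c-Jun peaks were retained, against 51.1% and 45.7% of the whole lists and 48.6% and 50.2% at the same places, and no site was in all 4 lists. The lost p300 peak nearest the top lay at chr10:99527267-99527513, at 17.9% of its list, and 1141 bp away a p300 peak was listed in both treatments, at 22.0% and 16.4% (chr10:99528418-99528690). The c-Jun peak nearest the top, at 26.1%, lay on the p300 site at chr10:99408107-99408389, which kept p300 and lost c-Jun. The retained c-Jun peak, at chr10:99517733-99518029, overlapped no p300 peak in either treatment. At chr10:99478519-99478898 p300 and c-Jun overlapped without pioglitazone, at 58.2% and 37.5%. With pioglitazone neither was listed there, and the nearest p300 peak, at 29.9% of its list, had its centre 491 bp away (chr10:99479020-99479246). Of the c-Jun peaks 2 of 4 overlapped p300 without pioglitazone and 0 of 3 with it, against 69.4% and 55.5% of the whole lists. With so few peaks the exact intervals were 6.76 to 93.2% and 0 to 70.8%.

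The Il6 window was the only one of the 6 with no c-Jun peak in the list with pioglitazone. Without pioglitazone c-Jun was listed at chr5:30339590-30339838, at 58.1%, and at chr5:30386338-30386586, at 82.9%. The nearest c-Jun peaks with pioglitazone were 137497 and 95233 bp from these, centre to centre. The first of the sites kept p300, at 45.7% without and 51.1% with pioglitazone, with the p300 centres 2 bp apart. The remaining p300 peaks were lost and stood low, at 80.2% and 91.0%, and the last lay 11 bp inside the window's end. No peak of the Il6 window without pioglitazone stood nearer the top of its list than this 45.7%. With the c-Jun list without pioglitazone cut to the length of the other, 1 c-Jun peak was left in this window against 0. In the upper 50% of every list the difference was gone, with 0 c-Jun peaks in both treatments, as in the Vcam1 window.

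In the Lif window 6 of 7 p300 peaks were retained, 85.7% (exact 95% interval 42.1 to 99.6), against 51.1% of the whole list and 74.8% at the same places, and none was gained. Of 6 c-Jun peaks 1 was retained, 16.7% (0.421 to 64.1), against 45.7% and 37.5%. The p300 peak nearest the top lay in the site at chr11:4196712-4197063, at 3.48% without and 6.07% with pioglitazone. c-Jun was listed at this site with pioglitazone only, at 12.8%, the place nearest the top for any c-Jun peak of the 6 windows with pioglitazone. On either side, c-Jun was listed without pioglitazone only: at chr11:4199638-4199886, at 16.7% of its list and 2933 bp from the gained peak, and at chr11:4191770-4192018, at 31.0%. Neither of these overlapped p300. The retained c-Jun peak belonged to the site at chr11:4208188-4208859, which was in all 4 lists (p300 at 22.0% and 37.4%, c-Jun at 63.5% and 57.0%). Its c-Jun centres were 184 bp apart, and with pioglitazone the c-Jun peak no longer overlapped p300, with 441 bp between the centres. The other lost c-Jun peaks stood at 74.5%, 88.8% and 91.2%, and the first 2 of these lay on p300 sites that were retained.

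**Figure D3:**
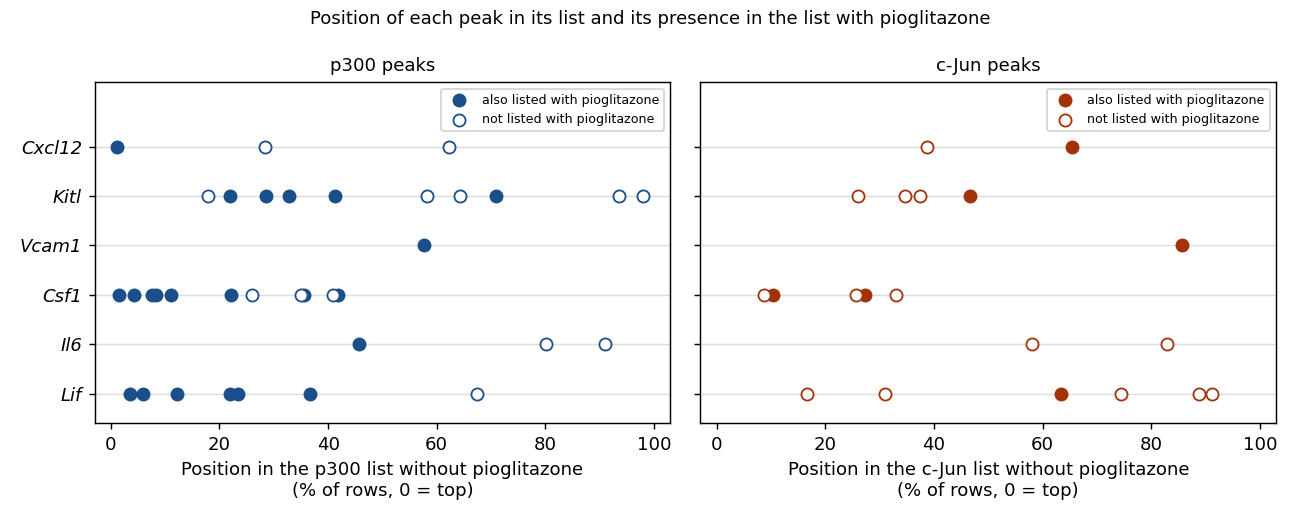
Place of each p300 peak (left) and c-Jun peak (right) in its list without pioglitazone, as % of rows with 0 at the top, for the 6 windows. Filled points were also listed with pioglitazone and open points were not. Beyond 50% lie 8 of 13 open p300 points and 5 of 14 open c-Jun points, and of all points 25 of 35 for p300 and 12 of 20 for c-Jun lie within the upper 50%.

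Of the lost p300 peaks in the windows 61.5% thus stood in the lower 50% of the list, against 74.0% of all lost p300 peaks, and of the lost c-Jun peaks 35.7%, against 67.4%. These differences were not tested, and the window peaks stood nearer the top to begin with. Within the upper 50% of the list, 9 of 12 c-Jun peaks in the windows were lost, against 3022 of 8522 in the whole list. For p300 the numbers were 5 of 25 in the windows, against 4007 of 15733. These counts within the upper 50% were not tested either.

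Across the 6 windows 22 of 35 p300 peaks were retained, 62.9% (exact 95% interval 44.9 to 78.5, which covers counting error only). Over the whole list 51.1% of p300 peaks were retained, and at the same places the whole list gave 63.8%. Peaks of these windows stood nearer the top than the list as a whole, with 25 of 35 in the upper 50%. The share in the windows is thus near the background. For c-Jun 6 of 20 peaks were retained, 30.0% (11.9 to 54.3), against 45.7% of the whole list and 46.1% at the same places. The interval includes both of these. Gained peaks made up 4 of the 26 p300 peaks with pioglitazone, 15.4% (4.36 to 34.9), against 26.9% of the whole list and 18.2% at the same places. They made up 5 of the 11 c-Jun peaks, 45.5% (16.7 to 76.6), against 41.6% and 41.1%. Both intervals include both shares.

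**Figure D4:**
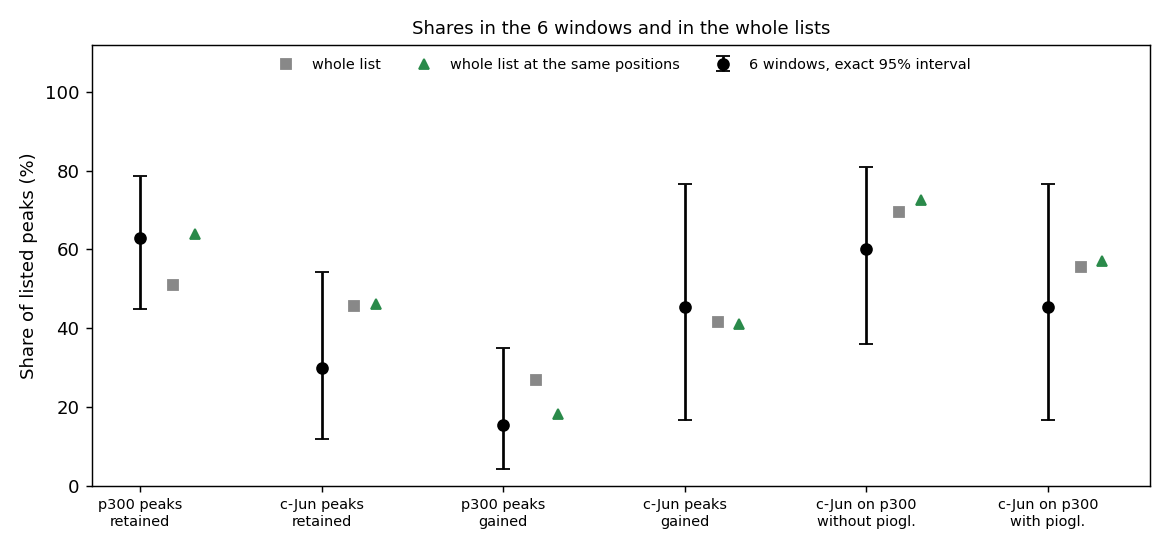
Share of listed peaks (vertical axis, %) for 6 quantities: black points are the 6 windows with exact 95% intervals, grey squares the whole list, and green triangles the whole list at the same places. Each interval includes the grey square, for instance 30.0% (11.9 to 54.3) against 45.7% for retained c-Jun peaks.

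c-Jun overlapped p300 at 12 of 20 peaks without pioglitazone, 60% (36.1 to 80.9), against 69.4% of all c-Jun peaks, and at 5 of 11 with it, 45.5% (16.7 to 76.6), against 55.5%. At the same places the whole c-Jun lists gave 72.6% and 57.0%. The order of the 2 member shares is not stable: it turned round in the upper 50% of every list (41.67% without and 57.14% with pioglitazone) and in windows narrowed by 20 kb at each end (46.15% and 50%), and without the Kitl window both shares were 62.5%. Seen from p300, 12 of 35 peaks overlapped c-Jun without pioglitazone, 34.3% (19.1 to 52.2), against 37.6% of all p300 peaks, and 5 of 26 with it, 19.2% (6.55 to 39.4), against 33.7%. At the same places the whole p300 lists gave 47.5% and 40.3%, and the second of these lies above its interval. The 12 sites of overlap without pioglitazone were spread over all 6 windows, with 4 in the Csf1 window, 3 in the Lif window, 2 in the Kitl window and 1 in each of the others.

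At the 12 overlaps p300 was retained at 11 and c-Jun at 5, a difference that was not tested. Of the 12 p300 peaks on c-Jun 11 were retained, 91.7% (61.5 to 99.8), against 74.1% of all such peaks and 82.8% of such peaks at the same places. Of the 23 off c-Jun 11 were, 47.8% (26.8 to 69.4), against 37.2% and 51.7%. Of the 12 c-Jun peaks on p300 5 were retained, 41.7% (15.2 to 72.3), against 56.3% and 53.2%, and of the 8 off p300 1 was, 12.5% (0.316 to 52.7), against 21.5% and 29.5%. Of the 14 lost c-Jun peaks 7 overlapped a p300 peak listed with pioglitazone, 50% (23.0 to 77.0), against 39.8% of all lost c-Jun peaks and 50.7% at the same places. Each of these whole-list and same-place shares lay inside the matching interval. Sites in both p300 lists and in the c-Jun list without pioglitazone only numbered 6, with 2 in the Csf1 window, 2 in the Lif window and 1 each in the Kitl and Il6 windows. This number has no background, because sites were not formed over the whole lists.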

How the data were processed

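The samples were 4 ChIP libraries and 1 pooled input, of which no file was used here. The submitters' processing notes name mm9, HOMER with no version, SAMtools 1.9 and Bowtie2 2.3.4.3. The sources used here do not state their roles, the peak-calling settings or the use of the input. The authors deposited 1 peak list per library. The deposited score is 1 for every peak, and peaks have 1 width per list (247, 227, 249 and 235 bp). Depth is unknown, and a difference in depth would move the number of peaks listed.

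The members, windows and rules were chosen with earlier results of these data known. An overlap of at least 1 bp made peaks shared, computed from peak centres in Python (version 3.11.15, numpy 2.4.6, pandas 2.3.3, scipy 1.17.1). The functions were tested on simulated data and gave the numbers of bedtools (version 2.31.1) in 24 of 24 comparisons. Intervals are exact (Clopper-Pearson). For the share at the same places, each member peak took the share of its 1% step among all peaks of the same class in the list. Chromosome densities use the span from the first to the last peak. The sites named are, in each window, the highest of each antibody without pioglitazone, all sites in all 4 lists, and sites listed in 1 treatment whose peak stood in the first 25% of its list. Other positions were added after their values were seen. Alternatives were other overlap rules, shortened lists and other window sizes. Other pathway genes and peak sequences need an mm9 reference and were not analysed here.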

Additional observations from a re-analysis of the deposited data

How the results depend on the processing

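No paired analysis was possible because each antibody and treatment had 1 library. Fewer peaks were listed with pioglitazone over the 6 windows for both antibodies under every alternative run. The difference for p300 was -9 and went from -12 with windows widened by 20 kb at each end to -4 with equal list lengths. For c-Jun it was -9 and was -5 with equal lengths, in the upper 50% of every list, and with windows narrowed by 20 kb. In an alternative added after the data were seen, leaving out the Kitl window gave -5 for p300 and leaving out the Lif window gave -5 for c-Jun. Retained and overlap shares moved within the exact intervals of their reported values under every alternative run. Those intervals are wide and the alternatives reuse many of the same peaks, so this does not show that the shares are stable. The shares were 51.43 to 70.0% for retained p300, 25 to 38.46% for retained c-Jun, and 41.67 to 69.23% and 36.36 to 62.5% for c-Jun on p300 without and with pioglitazone. The latter pair changed order in the upper 50% of the lists (41.67 and 57.14%) and in narrowed windows (46.15 and 50%), and was equal without the Kitl window. Of 96 numbers of peaks per window, list and alternative, 29 moved by over 1.5 times, 12 of them in the upper 50% of the lists. By window, equal lengths left the Il6 window with 1 p300 peak in each treatment, and widening left the Kitl window with 5 c-Jun peaks in each. Widening gave the Cxcl12 window 4 p300 peaks without and 3 with pioglitazone. In the Vcam1 window c-Jun peaks numbered 0 and 1 with equal lengths, and 3 and 2 with widening. In the upper 50% of every list the Vcam1 window had 0 p300 peaks and the Il6 window 0 c-Jun peaks in both treatments. Of the 24 numbers as reported, 22 are under 10, so 1 peak decides many of these comparisons.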

Other observations

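With the Vcam1 window widened by 20 kb at each end, further peaks were counted in every list. Over that wider window p300 was listed at 4 peaks without and 5 with pioglitazone, against 1 and 2 inside the window. c-Jun was listed at 3 and 2, against 1 and 1. The wider Csf1 window had 14 p300 peaks without pioglitazone but 10 with it, while c-Jun peaks numbered 8 and 6. Around the Il6 window the added flanks held no further peak in any list.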
